A study of Mus musculus with 12 samples.

Results

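The effect of Poldip2 loss was compared between the endothelial and the medial layer of the mouse carotid artery, gene by gene. The genotype effect in a layer is the log2 ratio of Poldip2-/- to control expression, after adding 1 to both values. The layer difference is the medial effect minus the endothelial effect, so that a positive value means a higher ratio in the medial layer. All genes with a mean of at least 1 FPKM (fragments of a gene per kilobase of its length, relative to library depth) over the 4 groups were included, which left 12582 of the 35275 genes in the table. At this limit, Gm10224 entered with a mean of 1.00 FPKM and RP24-287C2.2 stayed out with 0.999 FPKM. A gene could enter through a high value in 1 group alone.

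The groups were Poldip2-/- medial, control medial, Poldip2-/- endothelial and control endothelial layers, from C57BL/6 mice aged 10 weeks. The knockout is constitutive and was made by crossing floxed mice with an EIIa Cre deleter line, which removes exon 4 of Poldip2 in the early embryo, and the controls were littermates. RNA of the endothelial layer was flushed from the lumen with Qiazol, a lysis reagent, and the medial layer is the rest of the vessel, so that it also holds the adventitia. Column headers of the deposited table hold 4 animal numbers for the endothelial and 8 for the medial layer, of which 4 occur in both, so the group values of the layers may come from different sets of mice. The labels list 4 medial and 2 endothelial samples of each genotype, while the series design gives 4 mice per genotype. Each group has 1 FPKM value per gene in the deposited table, with no replicate error, so all comparisons here are descriptions of these values with no test.

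Arteries are built of layers with separate tasks. Endothelial cells line the lumen, release nitric oxide and control the passage of blood cells and solutes, whereas smooth muscle cells of the media contract and lay down collagen and elastic fibres. Fibroblasts, macrophages, nerves and fat lie outside the media. POLDIP2 is a protein of nucleus, cytosol and mitochondria that was first found as a partner of DNA polymerase delta and is known to act on the cytoskeleton, the extracellular matrix and mitochondrial metabolism.

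Poldip2 itself was lower in both layers. The gene (ENSMUSG00000001100) lies on the forward strand of GRCm38 at chr11:78512193-78522736. It was listed at 10.3 FPKM in Poldip2-/- and 35.9 FPKM in control medial layers, and at 8.27 FPKM in Poldip2-/- and 21.1 FPKM in control endothelial layers. The effects were -1.71 and -1.25, with a layer difference of -0.45. These values count all exons and do not measure the deleted exon by itself. Tmem199, the neighbouring gene of a transmembrane protein, had effects of 0.07 in the medial and 0.27 in the endothelial layer.

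The layer labels were checked with defining markers. Pecam1, which encodes the junction protein CD31 of endothelium, had 44.7 FPKM in Poldip2-/- and 68.7 FPKM in control medial layers, and at 2140 FPKM in Poldip2-/- and 1887 FPKM in control endothelial layers. Cdh5, the endothelial cadherin, was listed at 1.93 FPKM in Poldip2-/- and 3.08 FPKM in control medial layers, and at 73.5 FPKM in Poldip2-/- and 87.6 FPKM in control endothelial layers. Both endothelial genes were thus present at low levels in the medial layer. For Myh11, the myosin heavy chain gene of smooth muscle, the values were 729 FPKM in Poldip2-/- and 83.8 FPKM in control medial layers. In endothelial layers they were 2.38 FPKM in Poldip2-/- mice and 0.935 FPKM in controls. Acta2, also of smooth muscle, was at 313 FPKM in Poldip2-/- and 101 FPKM in control endothelial layers, both above Cdh5. The 24 listed contractile genes of smooth muscle summed to 2302 FPKM in Poldip2-/- and 1683 FPKM in control endothelial layers. Their medial sums were 34060 and 10154 FPKM. Smooth muscle genes were thus also present in the endothelial layer. Fewer genes were listed above 0 FPKM in Poldip2-/- than in control samples, with 21985 against 32396 genes in the medial layer and 23704 against 29799 genes in the endothelial layer. Its part in the results below was not tested.

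Genotype effects spread wider in medial than in endothelial layers, and the layers shared little of their direction. Over genes, the SD was 0.83 for medial and 0.33 for endothelial effects. In the medial layer 902 genes (7.17%) were at least 2-fold higher in Poldip2-/- mice and 1405 genes (11.2%) at least 2-fold lower, whereas in the endothelial layer 50 genes (0.397%) were higher and 188 genes (1.49%) lower. Between layers, Pearson's r of the effects across all 12582 genes was 0.21 and Spearman's rho was 0.05. These describe genes that share the same 4 groups and are not independent replicates. When both layers were centred on their medians, the sign was the same for 49.0% of genes.

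At 2-fold in both layers, 19 genes (0.151%) were higher in both and 124 genes (0.986%) were lower in both, whereas 2 genes (0.0159%) had higher medial with lower endothelial levels and 5 genes (0.0397%) had lower medial with higher endothelial levels. Same-direction genes therefore outnumbered opposite ones at this fold. At 1.5-fold the same 4 classes held 73 genes (0.58%), 384 genes (3.05%), 41 genes (0.326%) and 50 genes (0.397%). The smaller of the effects in the layers was 1.00 for Smim5 just inside the first class and 0.98 for Frzb just outside it. These values were 1.00 for Lgi2 (1.00 for Gpr133 just outside) in the second class, 1.01 for Gm15564 (0.98 for Gm13341) in the third and 1.05 for Cox8b (0.99 for Tac2) in the fourth.

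**Figure D1:**
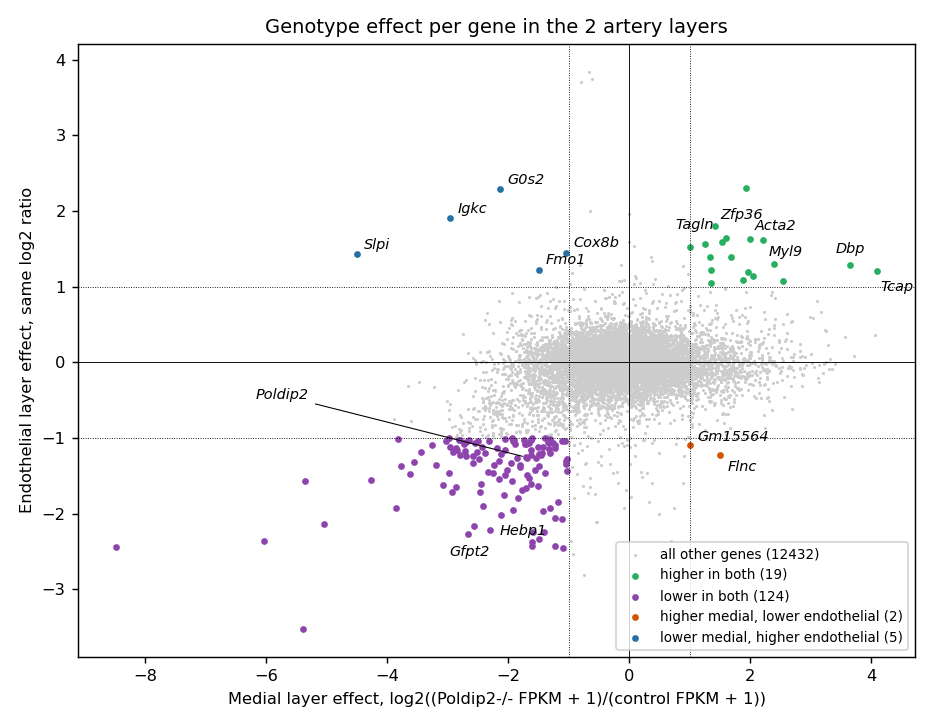
Genotype effect of each gene in the medial layer (x axis) and in the endothelial layer (y axis), both as log2 ratios of Poldip2-/- to control FPKM after adding 1, with 1 point per gene and dotted lines at 2-fold. The cloud is wider along the medial axis (SD 0.83) than along the endothelial axis (SD 0.33), and 124 genes fill the corner of genes lower in both layers, among them Poldip2.

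Among the opposite genes, Flnc was the only named gene that was higher in the medial and lower in the endothelial layer at 2-fold. It encodes filamin C, an actin crosslinker of muscle cells, and lies at chr6:29433153-29461888 on the forward strand of GRCm38. Flnc was listed at 19.1 FPKM in Poldip2-/- and 6.11 FPKM in control medial layers, and at 1.42 FPKM in Poldip2-/- and 4.65 FPKM in control endothelial layers. Its endothelial effect was -1.22, and the layer difference was 2.72. The endothelial level was 7.46% of the medial level in Poldip2-/- mice and 76.1% in controls. The other gene of the class was Gm15564, a gene model with no given function, named after its values were seen, with effects of 1.01 and -1.09.

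The reverse pattern was found at 2-fold in 5 genes of differing function. G0s2, an inhibitor of the triglyceride lipase ATGL, lies at chr1:193272161-193273188 on the reverse strand. It was listed at 15.99 FPKM in Poldip2-/- and 73.9 FPKM in control medial layers, against 12.8 FPKM in Poldip2-/- and 1.83 FPKM in control endothelial layers, with effects of -2.14 and 2.28. In Poldip2-/- mice the medial and endothelial levels lay close to each other, and in controls the medial level was far higher. Slpi, a secreted inhibitor of leukocyte proteases at chr2:164354070-164389095, had the smallest layer difference of all named genes, -5.93. Its level was 0.298 FPKM in Poldip2-/- and 28.4 FPKM in control medial layers, and 3.82 FPKM in Poldip2-/- and 0.794 FPKM in control endothelial layers. Fmo1, a flavin monooxygenase that oxidizes drugs, was listed at 51.8 FPKM in Poldip2-/- and 148 FPKM in control medial layers, and at 79.3 FPKM in Poldip2-/- and 33.4 FPKM in control endothelial layers. Fmo1 was the most abundant of these genes there, with an endothelial effect of 1.22 and a layer difference of -2.72. Cox8b, a muscle and brown fat isoform of a cytochrome oxidase subunit, had effects of -1.05 and 1.45 and was at 4.55 FPKM in Poldip2-/- and 1.04 FPKM in control endothelial layers. Igkc, the constant region of the immunoglobulin kappa light chain, was named after its values were seen. It was listed at 1.59 FPKM in Poldip2-/- and 19.1 FPKM in control medial layers. In endothelial layers it was at 32.2 FPKM in Poldip2-/- mice and 7.86 FPKM in controls. The immunoglobulin genes Ighg1, Ighv10-1 and Igkv6-15, also named after their values were seen, were at 14.2, 12.4 and 25.3 FPKM in Poldip2-/- endothelial layers. In control endothelial layers they were at 0.0611, 0 and 1.01 FPKM, and in both medial groups below 1 FPKM. The group values do not show whether 1 sample carried these levels. Cox8b left its class under each of the 4 scalings tried (centring on the medians or by gene length, TPM and scaled mean counts) and Gm15564 when effects were centred by gene length, whereas Flnc, G0s2, Slpi, Fmo1 and Igkc stayed in theirs under all of them.

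**Figure D2:**
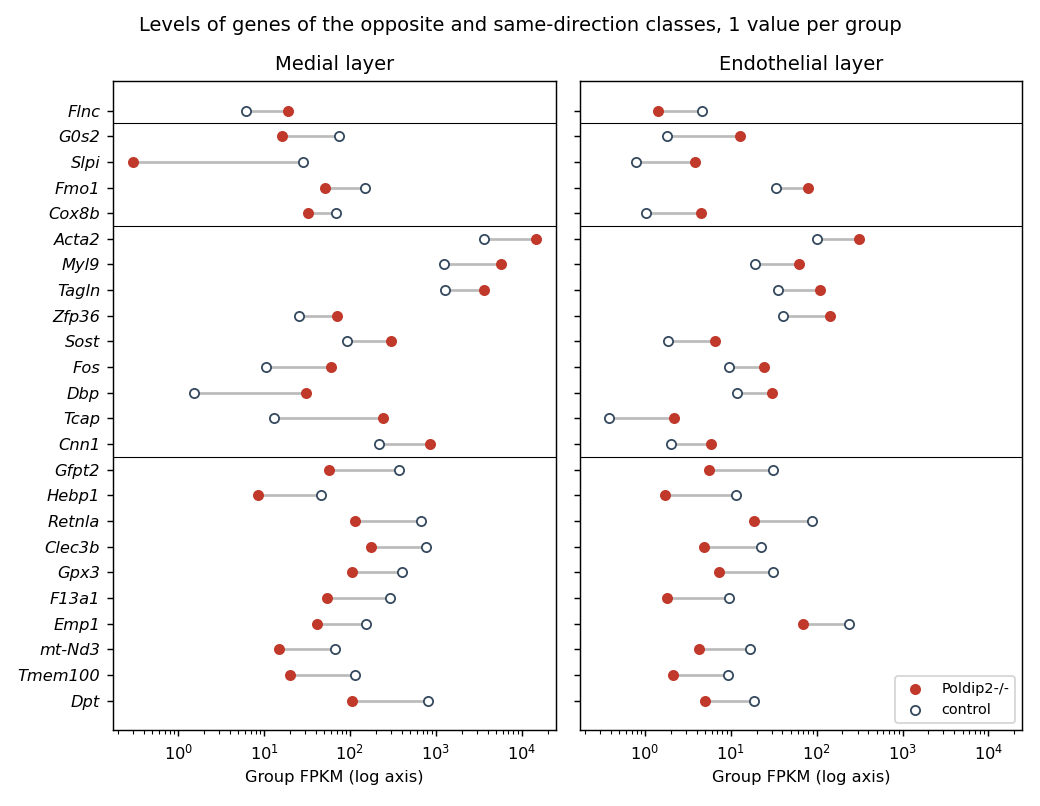
Group FPKM (log axis, 1 value per group) of the named genes in the 4 classes, with the medial layer left and the endothelial layer right, filled points for Poldip2-/- and open points for controls. From top to bottom are Flnc, which was higher in the medial and lower in the endothelial layer, 4 genes with the reverse pattern, 9 genes higher in both layers and 10 genes lower in both layers.

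Genes that were higher in both layers included smooth muscle genes with low endothelial levels and early response and clock genes that both layers express. Acta2, the smooth muscle actin, was listed at 14524 FPKM in Poldip2-/- and 3664 FPKM in control medial layers, and at 313 FPKM in Poldip2-/- and 101 FPKM in control endothelial layers. Its effects were 1.99 and 1.63. Myl9, the regulatory light chain of myosin, had effects of 2.21 and 1.62, Tagln, an actin-binding protein of smooth muscle, 1.54 and 1.59, and Cnn1, the myosin regulator calponin, 1.96 and 1.20. Tcap, a titin-binding protein known from striated muscle, had the largest medial effect of the class, 4.09, with 241 FPKM in Poldip2-/- and 13.2 FPKM in control medial layers and an endothelial effect of 1.20. Sost, which encodes the Wnt inhibitor sclerostin, had effects of 1.69 and 1.40. Endothelial levels of these 6 genes were small shares of the medial ones, for example 2.16% in Poldip2-/- and 2.75% in control mice for Acta2, 2.97% and 2.80% for Tagln, and 2.18% and 2.01% for Sost. The share was 0.901% in Poldip2-/- and 2.87% in control mice for Tcap and 0.326% and 1.12% for Myh11, which is not of this class. Over the class, 8 of 19 genes had an endothelial level below 10% of the medial level in both genotypes, against 4.61% of all genes. The part of carried-over medial RNA in their endothelial values was not tested.

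Other genes of this class had higher endothelial levels, which for Zfp36, Fos, Dbp and Hoxb7 were at least 41.3% of the medial ones in both genotypes. Zfp36, whose protein binds AU-rich elements and promotes mRNA decay, was listed at 70.4 FPKM in Poldip2-/- and 25.8 FPKM in control medial layers, and at 143 FPKM in Poldip2-/- and 40.4 FPKM in control endothelial layers. Its effects were 1.41 and 1.80. Fos, a subunit of the AP-1 transcription factor, was listed at 59.7 and 10.5 FPKM in Poldip2-/- and control medial layers and at 24.7 and 9.46 FPKM in Poldip2-/- and control endothelial layers. Dbp, a transcription factor driven by the circadian clock, was listed at 30.6 FPKM in Poldip2-/- and 1.53 FPKM in control medial layers, and at 30.01 FPKM in Poldip2-/- and 11.8 FPKM in control endothelial layers. In both layers of Poldip2-/- mice Dbp reached about the same level, whereas the control levels differed, and the effects were 3.64 and 1.28. Hoxb7, a homeobox gene named after its values were seen, was at 3.15 FPKM in Poldip2-/- and 0.0930 FPKM in control medial layers, and at 4.93 FPKM in Poldip2-/- and 0.204 FPKM in control endothelial layers. Of the 19 genes, 3 (Tcap, Sost and Hoxb7) lie within 25 Mb of Poldip2 on chromosome 11, where 4.71% of all genes lie. Among the 124 genes lower in both layers, 8 lie there, Poldip2 included. The part of this position in their levels was not tested.

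Promoters of this class were searched for the CArG box, the binding motif of serum response factor, which drives smooth muscle and early response genes. Among 12 genes of the class with a promoter sequence in RefSeq, Myl9 and Zfp36 held a CArG box on either strand between 250 bases before and 50 bases after the gene start. The motif occurred in 1.81% of all 27025 promoters. A match describes the sequence and is no evidence of binding. The windows below surround these matches, which are in capitals, and show a gene of each kind in the class. They come from RefSeq's GRCm38.p6, at chr2:156775263-156775352 on the forward strand for Myl9 and chr7:28379237-28379326 on the reverse strand for Zfp36.
Myl9: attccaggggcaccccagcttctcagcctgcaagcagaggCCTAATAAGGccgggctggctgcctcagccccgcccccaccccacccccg
Zfp36: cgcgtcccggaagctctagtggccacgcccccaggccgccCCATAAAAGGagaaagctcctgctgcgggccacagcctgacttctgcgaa

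Genes that were lower in both layers included fibroblast and macrophage genes. Gfpt2, which starts the hexosamine pathway, was listed at 57.3 FPKM in Poldip2-/- and 370 FPKM in control medial layers, and at 5.57 FPKM in Poldip2-/- and 30.7 FPKM in control endothelial layers. Its effects of -2.67 and -2.27 put it first among the named genes of the class. Clec3b, which encodes the plasminogen-binding protein tetranectin, was listed at 178 and 773 FPKM in Poldip2-/- and control medial layers and at 4.82 and 22.6 FPKM in Poldip2-/- and control endothelial layers. Dpt, a matrix protein of fibroblasts, had effects of -2.94 and -1.71. Gpx3, the secreted glutathione peroxidase, had effects of -1.92 and -1.95, and Hebp1, a heme-binding protein, of -2.30 and -2.21. Effects of the macrophage genes Retnla and F13a1 were -2.56 and -2.42 in the medial layer and -2.17 and -1.90 in the endothelial layer. By contrast, 0 of 14 leukocyte markers, which include macrophage genes, were 2-fold lower in both layers. Their list medians were -1.45 in the medial and 0.03 in the endothelial layer. Tmem100, a membrane protein of the BMP pathway in endothelium, had effects of -2.46 and -1.72. Its endothelial level here was 10.4% of the medial one in Poldip2-/- mice and 7.98% in controls.

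Emp1 and mt-Nd3 were also lower in both layers. Emp1, an epithelial membrane protein, was listed at 41.8 FPKM in Poldip2-/- and 153 FPKM in control medial layers, and at 68.6 FPKM in Poldip2-/- and 240 FPKM in control endothelial layers. Its effects were -1.84 and -1.79, and its endothelial level was 164% of the medial one in Poldip2-/- mice and 157% in controls. mt-Nd3, a complex I subunit encoded by mitochondrial DNA, had effects of -2.07 and -1.76. A pseudogene of similar length is given with the mitochondrial genes below. Over the class, 45 of 124 genes had an endothelial level below 10% of the medial level in both genotypes, against 4.61% of all genes. Of 13 fibroblast markers, 8 were 2-fold lower in both layers, against 0.986% of all genes, with list medians of -1.32 and -1.34. The summed level of these 13 markers was 7939 FPKM in Poldip2-/- and 19952 FPKM in control medial layers, and 1229 FPKM in Poldip2-/- and 2120 FPKM in control endothelial layers, and none was at 0 in any group. Pdgfra, the PDGF receptor that defines fibroblasts, had effects of -1.04 and -1.34. In such tissue RNA, fewer cells of a type and less RNA per cell cannot be told apart. Of the 124 genes, 16 were immunoglobulin or other immune receptor gene segments and 19 were pseudogenes, which were not chosen as named genes. Among all 12582 genes these numbered 43 and 499. Some segments are very short, such as Ighd5-1 of 10 bases, at 0 FPKM in Poldip2-/- and 41.2 FPKM in control medial layers. Gene models typed as protein coding were also in the class, such as Gm10800, at 2.30 and 1171 FPKM in these layers. How far the smaller number of genes above 0 FPKM in Poldip2-/- samples enters this class was not tested.

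The layer difference was at least 1 log2 unit for 1044 genes (8.3%) and at most -1 for 1382 genes (11%). Counts of list members below are to be read beside these shares, which hold for all genes. The share of the higher side was 43.0%. It depended on scaling, because the median gene had an effect of -0.15 in the medial and 0.03 in the endothelial layer. When both layers were centred on their medians, 1359 genes were on the higher side and 985 on the lower side (58.0% higher), and with FPKM scaled to equal sums (TPM) the counts were 1627 and 1182 (57.9%). With effects centred by gene length they were 1218 and 818 (59.8%), and with scaled mean counts 1969 and 1353 (59.3%).

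Gene length went with the effects in both layers, with rank correlations of opposite sign. Spearman's rho of length was 0.31 with the medial effect, -0.19 with the endothelial effect and 0.36 with the layer difference, across genes. For genes of up to 500 bases, the median effect was -0.70 in the medial and -0.23 in the endothelial layer. For genes longer than 8000 bases these medians were 0.41 and -0.16. Between these ends the endothelial median rose to 0.12 at 1000 to 2000 bases and then fell. The layer difference had a median of -0.47 in the shortest and 0.59 in the longest genes, and was at least 1 in 5.05% and 27.8% of them. The part of RNA quality or of the sampling of libraries in this trend was not tested, and median layer differences centred by gene length are given for the main lists below.

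**Figure D3:**
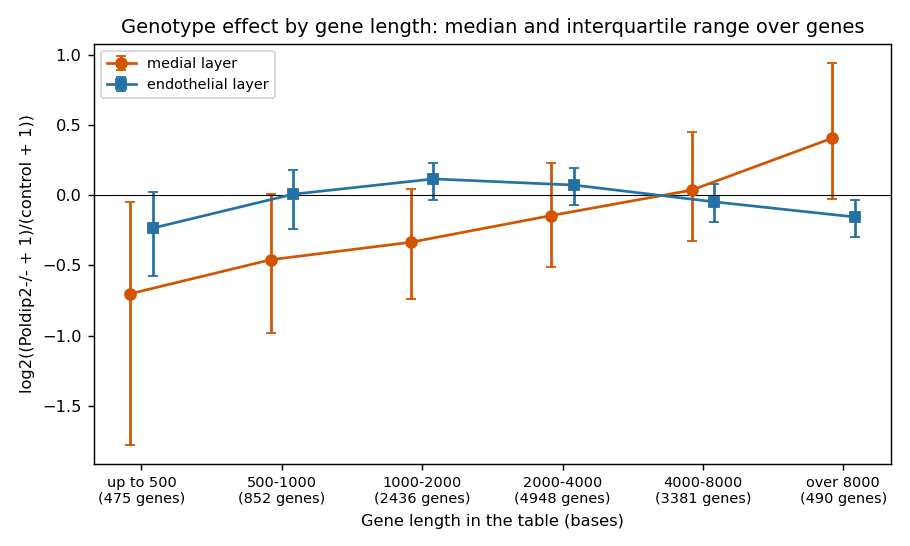
Median genotype effect (points) and interquartile range over genes (bars) by gene length in bases, for the medial and the endothelial layer. The medial median runs from -0.70 to 0.41 with increasing length. The endothelial median is -0.23 in the shortest genes, 0.12 at 1000 to 2000 bases and -0.16 in the longest genes.

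The named genes with the largest layer differences had higher medial levels in Poldip2-/- mice. Their endothelial effects lay between -0.61 for Lama5 and 0.08 for Cspg4. Cspg4, the NG2 proteoglycan of mural cells, was listed at 76.0 FPKM in Poldip2-/- and 4.86 FPKM in control medial layers, and at 0.307 FPKM in Poldip2-/- and 0.234 FPKM in control endothelial layers, a layer difference of 3.63. Lgr6, an R-spondin receptor, Scube3, a secreted EGF-domain protein, Myom1, a sarcomere protein, and Igsf9, an adhesion molecule, were also below 1 FPKM in both endothelial groups. Their layer differences were 3.43, 3.39, 3.27 and 3.24. The next genes were expressed in both layers. Ncam1, an adhesion molecule, was listed at 56.3 FPKM in Poldip2-/- and 4.43 FPKM in control medial layers, and at 14.2 FPKM in Poldip2-/- and 14.4 FPKM in control endothelial layers. Col18a1, the basement membrane collagen that holds endostatin, was listed at 509 and 57.2 FPKM in Poldip2-/- and control medial layers and at 58.7 and 70.5 FPKM in Poldip2-/- and control endothelial layers. Pcdh7, a protocadherin, and Map1b, a microtubule-associated protein, had layer differences of 3.35 and 3.32. In Poldip2-/- mice the medial levels of Col18a1 and Ncam1 exceeded the endothelial ones, and in controls they lay below them.

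At the other end of the named genes, after Slpi and G0s2, stood genes with lower medial levels in Poldip2-/- mice. Some gene models, immunoglobulin genes and pseudogenes that were not ranked here lay below the genes given next. Among them were Gm10800 (-6.03), Igkc (-4.86) and Fau-ps2 (-3.68). Alox15, a lipoxygenase, was listed at 0.0760 FPKM in Poldip2-/- and 12.5 FPKM in control medial layers and had an endothelial effect of -0.31. Ifi27l2a, an interferon-induced gene, was listed at 153 FPKM in Poldip2-/- and 1700 FPKM in control medial layers, and at 43.1 FPKM in Poldip2-/- and 51.8 FPKM in control endothelial layers. Ybx3, a cold shock protein that binds RNA, was listed at 16.7 FPKM in Poldip2-/- and 117 FPKM in control medial layers, and at 98.9 FPKM in Poldip2-/- and 76.4 FPKM in control endothelial layers. Retn, the fat cell hormone resistin, and Thrsp, a regulator of fat synthesis, had layer differences of -3.01 and -2.98, with endothelial effects of 0.65 and 0.82. Cd52, a surface protein of leukocytes, Tubb2b, a beta tubulin, and AW112010 had layer differences of -2.94, -2.90 and -2.83.

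Contractile and adhesion genes had positive median layer differences. Of the smooth muscle contractile apparatus, 23 of 24 genes entered, and 16 of them had a layer difference of at least 1. In Poldip2-/- mice 22 were at least 2-fold higher in medial and 5 in endothelial layers, against 7.17% and 0.397% of all genes. The list medians were 1.96 in the medial and 0.30 in the endothelial layer, and the median layer difference was 1.68 (1.59 centred by gene length), against -0.19 over all genes. Mylk, the kinase that activates myosin, was listed at 148 FPKM in Poldip2-/- and 20.1 FPKM in control medial layers, and at 3.68 and 3.45 FPKM in Poldip2-/- and control endothelial layers. Synpo2, Lmod1 and Des, which encode actin-bundling, actin-nucleating and intermediate filament proteins, had layer differences of 2.55, 2.39 and 2.37. Focal adhesion genes and actin crosslinkers had median effects of 1.52 and 0.04, and 17 of 24 had a layer difference of at least 1, with a median of 1.63 centred by gene length. Lpp, a focal adhesion protein, was at 82.5 FPKM in Poldip2-/- and 6.08 FPKM in control medial layers, and at 9.67 FPKM in Poldip2-/- and 7.46 FPKM in control endothelial layers. Tns1, which encodes tensin 1, and Actn1, the crosslinker alpha-actinin 1, had layer differences of 3.164 and 2.61. Integrins had median effects of 1.72 and -0.09, with a layer difference of at least 1 in 8 of 14 genes and of at most -1 in 1, Itgb7, a leukocyte integrin chain (-1.06), named after its values were seen. Their median layer difference was 1.74 (1.69 centred by gene length), but 0.55 with no minimum FPKM. Itga3, a laminin receptor chain, was at 50.9 FPKM in Poldip2-/- and 6.06 FPKM in control medial layers, and at 63.5 FPKM in Poldip2-/- and 67.0 FPKM in control endothelial layers.

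**Figure D4:**
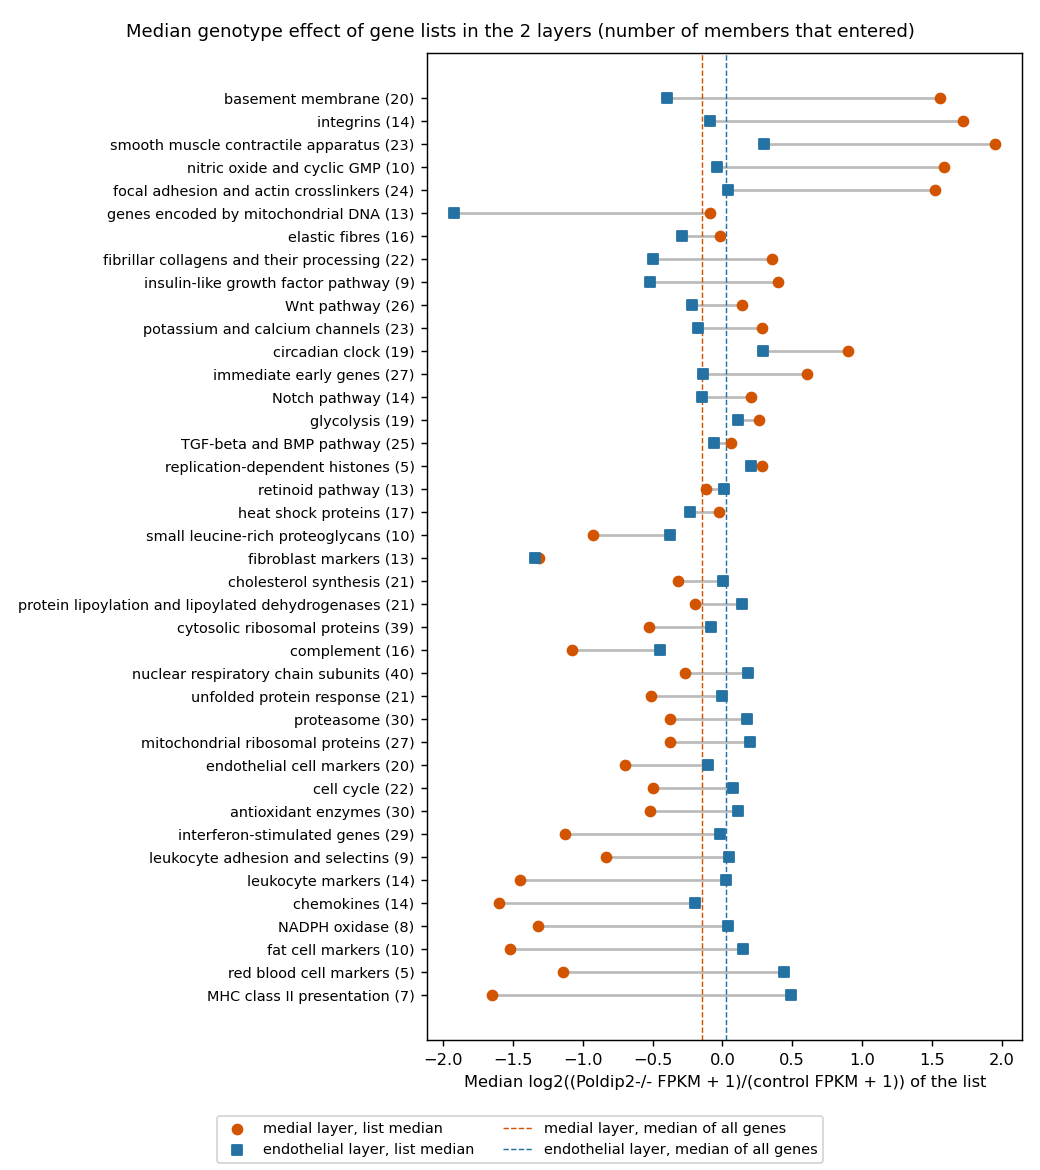
Median genotype effect of each gene list in the medial layer (circles) and the endothelial layer (squares), as log2 ratios of Poldip2-/- to control FPKM after adding 1, ordered by the median layer difference, with the number of members that entered in brackets and dashed lines at the medians of all genes. Basement membrane, integrin and contractile genes stand at the top with medial medians of 1.56, 1.72 and 1.96, and MHC class II genes at the bottom with -1.65.

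Matrix genes split by kind and by layer. Basement membrane genes, which encode the sheet beneath endothelium and around smooth muscle cells, had median effects of 1.56 in the medial and -0.40 in the endothelial layer, and 13 of 20 had a layer difference of at least 1, with a median of 1.81 (1.63 centred by gene length). Hspg2, the heparan sulfate proteoglycan perlecan, was listed at 18.9 FPKM in Poldip2-/- and 3.19 FPKM in control medial layers, and at 21.5 FPKM in Poldip2-/- and 40.1 FPKM in control endothelial layers. Lama5, a laminin chain, had effects of 2.69 and -0.61, and Col4a2, a chain of type IV collagen, of 2.55 and -0.46. Both layers expressed these 3 genes, and their effects had opposite signs in the layers. Fibrillar collagens and their processing genes had median effects of 0.35 and -0.50. Of 22 genes, 4 were at least 2-fold higher in the medial layer, against 7.17% of all genes. In the endothelial layer 7 were at least 2-fold lower, against 1.49%. Their median layer difference was 0.93 (0.97 centred by gene length), with 10 genes at 1 or more, and 15 with scaled mean counts. Col1a1, of type I collagen, was at 455 FPKM in Poldip2-/- and 281 FPKM in control medial layers, and at 5.003 FPKM in Poldip2-/- and 29.7 FPKM in control endothelial layers. Col6a1, Col6a2 and Col6a3, the chains of type VI collagen, had medial effects of 0.73, 0.88 and 1.66 and endothelial effects of -1.93, -1.60 and -0.87, which put them with Col1a1 among the 41 opposite genes at 1.5-fold. Endothelial levels of these collagens were low, and the fibroblast markers given above were lower there as well, whose part in these values was not tested. Elastic fibre genes had a median layer difference of 0.96 (0.76 centred by gene length), with 8 of 16 at 1 or more. Eln, elastin, was listed at 1937 FPKM in Poldip2-/- and 371 FPKM in control medial layers, and at 1184 FPKM in Poldip2-/- and 1437 FPKM in control endothelial layers. The latent TGF-beta binding proteins Ltbp1, Ltbp2 and Ltbp3 had layer differences of 2.75, 1.80 and 1.84. Small leucine-rich proteoglycans, which bind collagen, had a median layer difference of -0.03 that became positive with the other scalings, up to 1.02.

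Genes of mitochondrial DNA were lower in endothelial layers, and medial layers had effects of either sign. Mitochondrial DNA encodes 13 subunits of the respiratory chain, and all entered. Of these, 11 were at least 2-fold lower in the endothelial layer of Poldip2-/- mice, against 1.49% of all genes, while in the medial layer 3 were at least 2-fold lower, against 11.2% of all genes, and 1 at least 2-fold higher, against 7.17%. The median medial effect was -0.09, whose sign changed with scaling (up to 0.30), and the median endothelial effect was -1.92. Centred by gene length, the median layer difference was 1.88. mt-Nd4, a complex I subunit, was listed at 349 FPKM in Poldip2-/- and 248 FPKM in control medial layers, and at 45.0 FPKM in Poldip2-/- and 184 FPKM in control endothelial layers. mt-Cytb, the cytochrome b of complex III, was at 1564 and 1210 FPKM in Poldip2-/- and control medial layers and at 282 and 849 FPKM in Poldip2-/- and control endothelial layers. For mt-Nd4, mt-Cytb and mt-Nd6, the medial level was higher in Poldip2-/- mice and the endothelial level lower. mt-Nd2 had effects of -0.09 and -1.92. The 13 genes together made up 1.04% of the summed FPKM in Poldip2-/- and 0.996% in control medial layers, and 0.220% in Poldip2-/- and 0.789% in control endothelial layers. The 3 genes at least 2-fold lower in the medial layer, mt-Nd3, mt-Co3 and mt-Atp6, had 348, 784 and 681 bases. The pseudogenes RP23-8J15.5, RP23-8J15.4 and RP23-8J15.3 on chromosome 1, given after their values were seen, had 345, 783 and 678 bases. Medial effects were -2.07, -1.61 and -1.12 for the genes and -1.80, -1.60 and -1.40 for the pseudogenes, in the same order. How reads shared with nuclear copies of mitochondrial DNA were counted is not given in the sources used here. The part of such reads in these effects was not tested.

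Nuclear genes of the same organelle did not have this pattern. Respiratory chain subunits encoded in the nucleus had median effects of -0.27 and 0.19, and none of 40 was past 2-fold in either layer. Sdhd, a subunit of complex II, had the lowest layer difference of this list, -1.02. Mitochondrial ribosomal proteins had median effects of -0.38 and 0.20, and genes of protein lipoylation and lipoylated dehydrogenases of -0.20 and 0.14. Outside this organelle, proteasome subunits had median effects of -0.37 and 0.18. Most members of these lists had a negative layer difference, as the median gene did (-0.19), for example 39 of 40 respiratory chain subunits and 29 of 30 proteasome subunits. After centring by gene length, their median layer differences were -0.04 for the respiratory chain, -0.06 for lipoylation and -0.13 for the proteasome, and that of the mitochondrial ribosomal proteins was -0.39. Cytosolic ribosomal proteins, with median effects of -0.53 and -0.08, had a median layer difference of -0.44, which became 0.00 after centring.

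**Figure D5:**
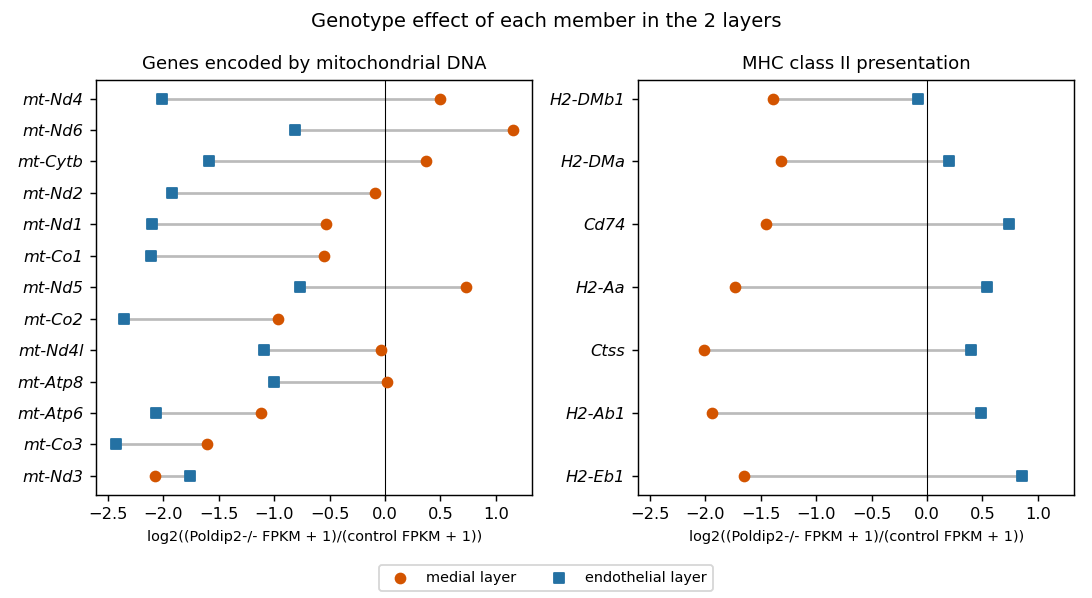
Genotype effect of each gene encoded by mitochondrial DNA (left) and of each MHC class II gene (right), in the medial layer (circles) and the endothelial layer (squares), as log2 ratios of Poldip2-/- to control FPKM after adding 1. Endothelial effects lie left of the medial ones for 12 of 13 mitochondrial genes and right of them for all 7 MHC class II genes.

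Immune gene lists had negative median layer differences. By MHC class II presentation macrophages, dendritic cells and B cells show peptides to T cells. Its genes had median effects of -1.65 in the medial and 0.49 in the endothelial layer. All 7 that entered were at least 2-fold lower in the medial layer, against 11.2% of all genes. All 7 also had a layer difference of at most -1, against 11%, with a median of -2.28 (-1.78 centred by gene length). H2-Eb1, a class II beta chain, was listed at 24.4 FPKM in Poldip2-/- and 78.9 FPKM in control medial layers, and at 32.2 FPKM in Poldip2-/- and 17.3 FPKM in control endothelial layers. H2-Ab1, the other beta chain, was at 58.3 FPKM in Poldip2-/- and 227 FPKM in control medial layers, and at 70.0 FPKM in Poldip2-/- and 49.5 FPKM in control endothelial layers. In Poldip2-/- mice the endothelial levels of both exceeded the medial ones, and in controls the medial levels exceeded the endothelial ones. Ctss, a protease that trims the invariant chain, and H2-Aa, a class II alpha chain, had layer differences of -2.42 and -2.28. Leukocyte markers had median effects of -1.45 and 0.03, and 11 of 14 had a layer difference of at most -1, but 7 when centred by gene length. Their summed level was 803 FPKM in Poldip2-/- and 3668 FPKM in control medial layers, and 83.1 FPKM in Poldip2-/- and 129 FPKM in control endothelial layers, with none of the 15 listed markers at 0 in any group. Ptprc, the leukocyte antigen CD45, was at 1.68 FPKM in Poldip2-/- and 5.02 FPKM in control medial layers, and at 1.31 and 1.13 FPKM in the endothelial layers. The share of immune cells in these values was not tested. Aif1, Coro1a and Tyrobp, genes of macrophages and other leukocytes, had layer differences of -2.67, -2.43 and -2.32.

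Interferon-stimulated genes, which cells of any kind switch on in the response to viruses, had median effects of -1.13 and -0.02, and 14 of 29 had a layer difference of at most -1 and none of at least 1. That count was 8 with both layers centred on their medians and 9 when centred by gene length, and the median layer difference was -0.94, and -0.76 and -0.67 under these settings. Irf7, the transcription factor that amplifies interferon production, was listed at 2.88 FPKM in Poldip2-/- and 16.6 FPKM in control medial layers, and at 10.6 FPKM in Poldip2-/- and 11.7 FPKM in control endothelial layers. Psmb9, a subunit of the immunoproteasome, had effects of -1.82 and 0.41. Oas1a, which synthesizes 2'-5' oligoadenylates, was at 1.75 FPKM in Poldip2-/- and 9.94 FPKM in control medial layers, and at 4.07 and 4.74 FPKM in Poldip2-/- and control endothelial layers. The core of the element bound by interferon regulatory and STAT factors, which is GAAA and GAAA with NN (any bases) between them, was searched on both strands of the same promoter windows. It was found in 13 of 24 promoters of this list, whose genes were listed as interferon targets, and in 3.99% of all 27025 promoters. The Oas1a window from RefSeq's GRCm38.p6, chr5:120907526-120907579 on the reverse strand, is shown as the named gene of the list with a match, with its overlapping matches in capitals.
Oas1a: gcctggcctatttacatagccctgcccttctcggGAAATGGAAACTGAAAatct

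Chemokines had median effects of -1.60 and -0.20, and 11 of 14 had a layer difference of at most -1. With effects centred by gene length 5 had, and with scaled mean counts 6, and the median of -1.35 became -0.86 and -0.83. Cxcl16, a scavenger receptor and ligand of CXCR6, was listed at 7.36 FPKM in Poldip2-/- and 22.7 FPKM in control medial layers, and at 50.8 FPKM in Poldip2-/- and 45.3 FPKM in control endothelial layers. Ccl7 and Ccl2, which attract monocytes, were below 1 FPKM in both endothelial groups and had layer differences of -1.62 and -1.61. Ccl9 was lower in both layers, with effects of -2.72 and -1.17. Complement genes had median effects of -1.08 and -0.45, and their median layer difference of -0.46 was -0.12 centred by gene length and 0.17 with scaled mean counts. Cfd, the protease factor D, had effects of -2.25 and 0.39, Cd55, an inhibitor of complement convertases, of -1.84 and 0.03, and the C1q chains C1qb and C1qc had layer differences of -1.36 and -1.37.

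Fat and red blood cell markers also had negative layer differences. Fat cell markers had median effects of -1.52 and 0.15, and 7 of 10 had a layer difference of at most -1, with a median of -1.56 (-1.30 centred by gene length). Their summed level was 815 FPKM in Poldip2-/- and 3024 FPKM in control medial layers, and 183 FPKM in Poldip2-/- and 149 FPKM in control endothelial layers. Adipoq, the fat cell hormone adiponectin, was at 24.9 FPKM in Poldip2-/- and 131 FPKM in control medial layers, and at 3.22 and 2.86 FPKM in Poldip2-/- and control endothelial layers. G0s2, Thrsp and Retn, all known from fat cells, were named for their low layer differences, so their side was fixed by that choice. Red blood cell markers of Poldip2-/- mice were lower than in controls in medial layers and higher in endothelial layers, with summed levels of 972 and 2309 FPKM in Poldip2-/- and control medial layers and of 990 and 729 FPKM in Poldip2-/- and control endothelial layers. Hbb-bs, a beta globin whose reads may be shared with its near-identical copy Hbb-bt, had effects of -1.81 and 0.43. The part of blood and fat left on the vessels in the layer differences was not tested. Endothelial markers had a median of -0.70 in the medial and -0.10 in the endothelial layer, and their summed level was 169 FPKM in Poldip2-/- and 265 FPKM in control medial layers, and 5786 FPKM in Poldip2-/- and 5608 FPKM in control endothelial layers. Of these 20 markers, 4 had a layer difference of at most -1 and 2 of at least 1, against 11% and 8.3% of all genes. Emcn, an endothelial sialomucin, had the lowest layer difference and the highest endothelial effect of the list. It was listed at 0.794 FPKM in Poldip2-/- and 3.19 FPKM in control medial layers, and at 45.3 FPKM in Poldip2-/- and 27.1 FPKM in control endothelial layers.

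Signalling lists held members on both sides. Genes of nitric oxide and cyclic GMP signalling, through which endothelium relaxes smooth muscle, had median effects of 1.59 and -0.04, and 8 of 10 had a layer difference of at least 1. The median layer difference was 1.64 (1.65 centred by gene length), but 1.03 with no minimum FPKM. Gucy1a3, a subunit of the nitric oxide receptor guanylate cyclase, was listed at 68.3 FPKM in Poldip2-/- and 13.1 FPKM in control medial layers, and at 0.928 and 0.927 FPKM in Poldip2-/- and control endothelial layers. Npr1, a receptor of natriuretic peptides, was expressed at similar levels in the layers of Poldip2-/- mice, with 33.4 FPKM in the medial and 32.03 FPKM in the endothelial layer, against 9.26 and 34.9 FPKM in controls. Mrvi1, a substrate of the cyclic GMP kinase, had a layer difference of 2.73. Subunits of the superoxide-producing NADPH oxidases had median effects of -1.32 and 0.04, but Nox4, the catalytic subunit of smooth muscle, went against the phagocyte subunits. The median layer difference was -1.39 (-1.41 centred by gene length), but -0.85 with a minimum of 5 FPKM. Nox4 was at 107 FPKM in Poldip2-/- and 36.7 FPKM in control medial layers, and at 3.05 and 4.70 FPKM in Poldip2-/- and control endothelial layers. Ncf4, Ncf1 and Rac2, subunits of the phagocyte oxidase, had layer differences of -2.10, -1.82 and -1.70. Antioxidant enzymes had median effects of -0.52 and 0.11, with Hmox1, the heme oxygenase, at a layer difference of -1.39. Of these enzymes, 6 had a layer difference of at most -1 and 0 when centred by gene length, where the median was -0.31 against -0.63.

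Immediate early genes, which cells switch on within minutes of a stimulus, had median effects of 0.61 and -0.14. This list held genes of both directions in the endothelial layer. There 6 of 27 were at least 2-fold higher and 3 at least 2-fold lower, against 0.397% and 1.49% of all genes. The median layer difference was 0.34, and 0.73 when centred by gene length. Ctgf, a matricellular growth factor, was listed at 1062 FPKM in Poldip2-/- and 531 FPKM in control medial layers, and at 94.1 FPKM in Poldip2-/- and 161 FPKM in control endothelial layers. Cyr61, of the same family, was at 451 FPKM in Poldip2-/- and 87.0 FPKM in control medial layers, and at 1255 FPKM in Poldip2-/- and 659 FPKM in control endothelial layers. Nr4a1, an orphan nuclear receptor, had effects of 0.10 and -1.09. These relatives thus differed in the endothelial layer, while Ctgf and Cyr61 were both higher in the medial layer of Poldip2-/- mice. Circadian clock genes had median effects of 0.90 and 0.29. In the medial layer 8 of 19 were at least 2-fold higher, among them Dbp and Nr1d1, against 7.17% of all genes. Their median layer difference was 0.34, and between 0.50 and 0.98 under the other scalings. Nr1d1, the clock repressor REV-ERB alpha, was listed at 128 FPKM in Poldip2-/- and 23.4 FPKM in control medial layers, and at 146 FPKM in Poldip2-/- and 106 FPKM in control endothelial layers. Tef, a relative of Dbp, had effects of 1.60 and 0.39. The hour at which the arteries were taken is not given in the sources used here.

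Growth factor pathways held members on both sides. The median layer difference was 0.14 for the TGF-beta and BMP, 0.25 for the Notch, 0.60 for the Wnt and 0.66 for the insulin-like growth factor pathway, against -0.19 over all genes. Centred by gene length these medians were 0.19, 0.32, 0.58 and 0.49, and with no minimum FPKM those of the Wnt and insulin-like growth factor pathways were 0.19 and 0.18. Smad4, the shared partner of receptor-activated Smads, was listed at 10.8 FPKM in Poldip2-/- and 35.4 FPKM in control medial layers, and at 45.0 FPKM in Poldip2-/- and 34.2 FPKM in control endothelial layers. Smad6, an inhibitory Smad, was at 46.4 FPKM in Poldip2-/- and 9.73 FPKM in control medial layers, and had an endothelial effect of 0.23. The ligands Tgfb2 and Bmp6 had layer differences of 1.88 and -1.49. In the Wnt pathway, 9 of 26 genes had a layer difference of at least 1, against 8.3% of all genes, and 5 of at most -1, against 11%, with the receptor Fzd1 at 2.22 and the ligands Wnt2 and Wnt2b at -1.94 and -1.80. In the Notch pathway the receptor Notch3 and its target Heyl, both of smooth muscle, had layer differences of 1.89 and 1.87. Of the insulin-like growth factor genes, Igfbp4, Igfbp5 and Igfbp6, named after their values were seen, were lower in both layers, while Igfbp2 and the receptor Igf1r had layer differences of 1.75 and 1.67. In the retinoid pathway, Stra6, the cell-surface transporter of retinol, was listed at 0.446 and 1.44 FPKM in Poldip2-/- and control medial layers, and at 4.25 FPKM in Poldip2-/- and 35.9 FPKM in control endothelial layers, whereas Aldh1a1, an enzyme that makes retinoic acid, had effects of -1.92 and 0.33. Among channels, Kcnma1, the large-conductance potassium channel of smooth muscle, had effects of 2.60 and -0.18, and Kcne3, a potassium channel subunit, of -0.95 and 1.18. Median layer differences were 0.16 for glycolysis, 0.04 for heat shock proteins, -0.31 for cholesterol synthesis, -0.52 for the unfolded protein response and -0.59 for the cell cycle, and centred by gene length they were 0.43, 0.34, -0.09, -0.23 and -0.20 in the same order. They were 0.59 for the potassium and calcium channels, 0.08 for 5 replication-dependent histones, -1.06 for leukocyte adhesion molecules and selectins, and -0.68 for 3 Schwann cell, -1.29 for 2 platelet and -0.64 for 1 skeletal muscle marker that entered.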

How the data were processed

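RNA-seq measured mRNA in both layers of carotid arteries, with 12 samples listed in the labels. Libraries were made from small RNA inputs by capture on poly-T beads and sequenced from both ends. According to the methods, the authors aligned reads to mm9 with TopHat and compared groups with DESeq2, and edgeR 3.16.5, STAR 2.5, HTSeq 0.6.1 and STAR-Fusion appear in the submitters' processing notes with no stated role. Gene coordinates in the table overlapped the RefSeq gene of the same symbol in GRCm38 for 10973 of 10977 symbols and are given as such. The deposited group FPKM, 1 per gene and group, are the authors' pooled values, and how replicates were combined is not given in the sources used here. The authors' scaled group means of counts, a normalised signal, and the deposited gene length in bases were used for alternatives and for the length trend. Columns of the authors' comparisons hold log2 fold changes, p-values, adjusted p-values and calls, and none was used.

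Another 24 columns hold single samples under animal numbers that neither the labels nor the paper tie to genotypes, and they were not used. The count test planned for mapped single samples was therefore not run. The depth of each library and the spread between replicates are not given, so the values used here do not show whether a difference exceeds replicate error.

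Effects were computed as log2 ratios of group FPKM after adding 1, which understates changes of low genes, over genes with a mean of at least 1 FPKM, with classes at 2-fold. A total of 43 gene lists were described by counts and medians. Members, lists and rules were chosen with earlier results of these data known. Named genes were Poldip2, Tmem199, 7 defining markers and protein-coding genes with a unique symbol that is no model or clone name and at least 5 FPKM in a group, namely up to 10 per class by the smaller effect, the 10 largest and 10 smallest layer differences and up to 4 per list, with others marked as named after their values were seen. Some genes that this rule names are not reported here. Alternatives were a pseudocount of 0.1, no minimum or a minimum of 5 FPKM, protein-coding genes alone, 1.5-fold, centring on the median or within 20 bins of gene length, FPKM scaled to equal sums (TPM) and scaled means. Python 3.11.15, numpy 2.4.6, pandas 2.3.3 and matplotlib 3.10.9 were used, and the computations were tested on simulated data.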

Additional observations from a re-analysis of the deposited data

How the results depend on the processing

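Counts of genes depended on the settings, and the 4 classes are given as higher in both layers, lower in both, medial higher with endothelial lower, and medial lower with endothelial higher. With a pseudocount of 0.1 they held 40, 425, 28 and 31 genes. At 1.5-fold they held 73, 384, 41 and 50 genes, with 2056 genes at a layer difference of at least 1.5-fold and 3171 at the reverse. With TPM they held 32, 269, 13 and 13 genes, with 1627 genes at a layer difference of at least 1. With scaled means they held 57, 398, 69 and 30 genes, with 1969 genes at a layer difference of at least 1. The class with higher medial and lower endothelial levels held 1 gene among protein-coding genes and 6 genes after centring on the median. Layer differences of at most -1 numbered 2330 with no minimum FPKM and 818 after centring by length, and with a minimum of 5 FPKM 689 genes were at 1 or more and 844 at -1 or less. The other 28 counts stayed within 1.5 times their main value. For TPM and scaled means, part of this follows from construction, since adding 1 weighs less on larger values. Of the layer differences of single named genes over these settings, 374 kept their sign and their side of 1 log2 unit and 32 did not, and of list medians 303 did and 40 did not, while no value past 1 log2 unit changed its sign. The 19 genes higher in both layers were all kept with scaled means and 16 of them after centring by length, and of the 124 genes lower in both layers 113 and 91 were kept.

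No paired analysis was possible because each group has 1 pooled value per gene and the single-sample columns carry no genotype. Leaving out a replicate was not run for the same reason. These values cannot show which layer differences exceed the spread between mice, and genes of low level are the most exposed to this limit.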
